A study of Mus musculus with 6 samples.

Results

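The 36 protein-coding genes of the constitutive proteasome were followed in mouse liver, out of 37991 genes in the count table. They were chosen by name alone, as every Psma, Psmb, Psmc or Psmd gene with a number except the interferon-induced subunits Psmb8, Psmb9 and Psmb10. They comprised 8 alpha ring genes, 8 beta ring genes, 6 ATPase genes and 14 non-ATPase genes, which is 16 genes of the core particle and 20 of the regulatory particle. The name rule also takes in Psma8 and Psmb11, which are known as the testis and thymus versions of core subunits, and Psmd5, Psmd9 and Psmd10, which are known as assembly chaperones rather than parts of the finished complex. Livers came from 12-week-old C57BL/6J males, 3 wild type (WT) and 3 of the same background lacking Zpbp2 on both alleles (Zpbp2 KO), with 1 poly(A)-selected RNA-seq library per liver. Zpbp2 encodes a protein of the sperm head with a role in binding to the zona pellucida. The sources do not say which exons the null allele lacks or which cell types lose it. All 6 libraries share strain, sex, age and tissue.

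The proteasome is the main protease of cytosol and nucleus. Alpha and beta subunits form stacked rings, the outer alpha rings gating a chamber in which 3 of the beta subunits cut protein. The regulatory particle caps the rings: its ATPases unfold the substrate and open the gate, and its non-ATPase subunits bind ubiquitin chains and remove them. In hepatocytes, which make and secrete much protein, the complex clears misfolded and short-lived proteins. When proteasome activity falls short, the transcription factor Nfe2l1 raises the subunit genes together.

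Total counts ran from 37904891 to 52955687 per library, and the proteasome genes held 118969 to 164909 of them, 0.294% to 0.335% of a library. Zpbp2 had 24 counts over the WT libraries and 0 over the Zpbp2 KO libraries, which matches the labels. Levels are counts scaled to a common library size (CPM). The sum of 8 hepatocyte markers was 92565 to 103523 CPM for WT and 104995 to 110021 CPM for the knockout, so every knockout liver was above every WT liver. Of these markers 7 had a higher estimate in the knockout, and 1 was lower at an edgeR unadjusted p below 0.05 (2.93% of all tested genes). Markers of other cells were lower by far. Kupffer cell markers summed to 203 to 275 CPM in WT and 110 to 344 CPM in the knockout. Endothelial markers summed to 163 to 237 CPM in WT and to 266, 106 and 197 CPM in Zpbp2 KO replicates 1 to 3. T and NK cell markers summed to 1.76 to 4.56 CPM over all livers, and the neutrophil genes Ly6g and Mpo were at 0. In whole liver, fewer cells of a type and less RNA per cell cannot be told apart.

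No constitutive proteasome gene was called as different between the genotypes, and the estimates were small. Of the 36 genes, 35 passed the filter on low counts and 0 were called by edgeR's quasi-likelihood test at an adjusted p below 0.05, where 0.0136% of all 14686 tested genes were called. At an unadjusted p below 0.05, 0 proteasome genes were higher and 0 lower, against 2.86% and 2.93% of all tested genes. DESeq2 and limma-voom also called 0 of the 35, against 0.518% and 0.0136% of all tested genes. Among the 35, no edgeR adjusted p (Benjamini-Hochberg over all tested genes) was below 0.798. Without Psma8, which is described below, the estimated changes of the other 34 ran from -7.78% to 17.3%, and their 95% intervals lay between -19.9% and 44.8%. A positive log2 fold change means a higher level without Zpbp2. Of the 35 tested genes 29 were above 0 and 6 below. Their median was 0.07, where that of all tested genes was 0.01.

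**Figure D1:**
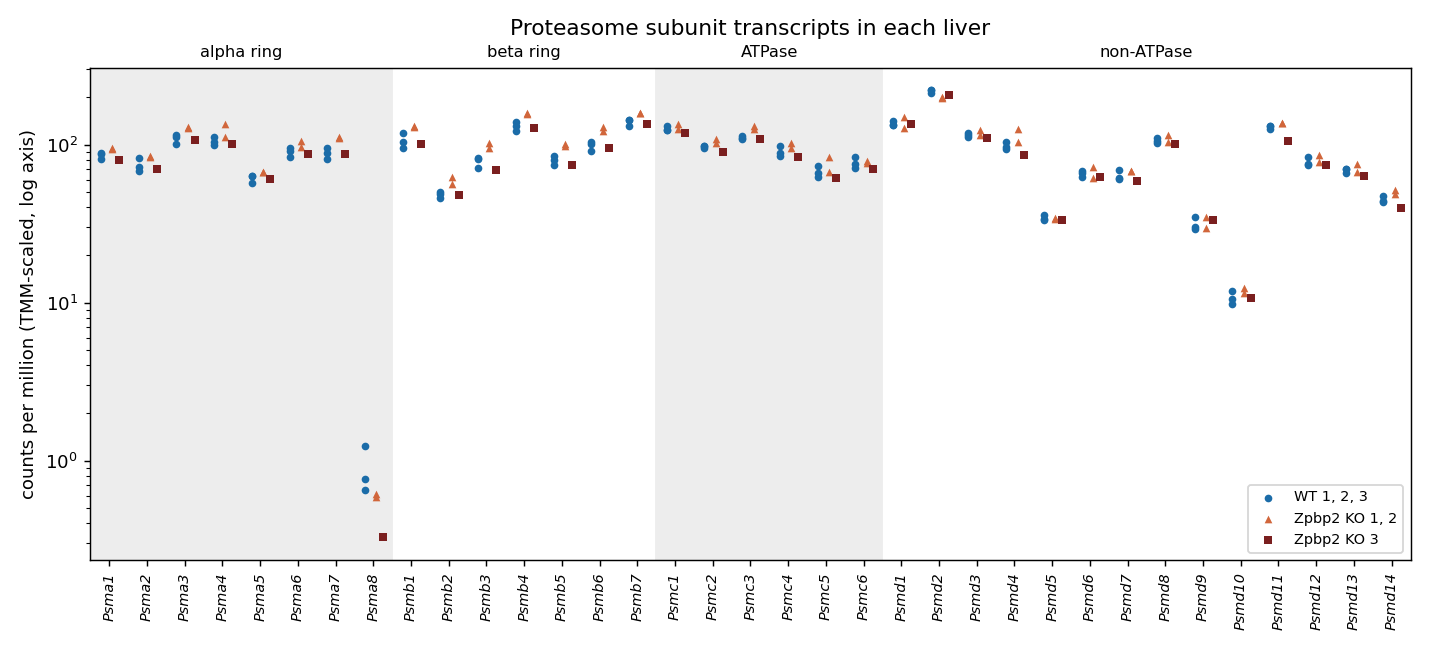
CPM (log axis) of the 35 tested proteasome genes in each liver, with circles for the 3 WT livers, triangles for Zpbp2 KO replicates 1 and 2 and squares for Zpbp2 KO replicate 3. All but Psma8 lie between 9.81 and 221.6 CPM with the genotypes interleaved in nearly every gene, and Psma8 lies between 0.326 and 1.23 CPM.

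The median estimate for the core lay above that for the regulatory particle in the comparison of genotypes, but single genes overlapped. Core estimates without Psma8 ran from 0.07 to 0.23 and regulatory estimates from -0.12 to 0.13. The summed core level was above every WT liver in Zpbp2 KO replicates 1 and 2 but not in replicate 3. The median log2 fold change was 0.15 over 15 core genes, 14 of them above 0, and 0.02 over 20 regulatory particle genes, 15 of them above 0. By subcomplex it was 0.10 for the alpha ring, 0.19 for the beta ring, 0.05 for the ATPases and 0.01 for the non-ATPase subunits. Summed over the genes of the core, WT livers held 1365, 1204 and 1314 CPM in replicates 1 to 3 and Zpbp2 KO livers 1524, 1553 and 1241 CPM. The regulatory particle summed to 1779, 1721 and 1804 CPM in WT and 1824, 1876 and 1647 CPM in Zpbp2 KO livers. Zpbp2 KO replicates 1 and 2 thus held the highest core sums, and replicate 3 lay inside the WT range for the core and below it for the regulatory particle. The ratio of the core sum to the regulatory sum was 0.767, 0.70 and 0.728 in WT and 0.836, 0.828 and 0.753 in Zpbp2 KO livers, so that the genotypes overlapped. The mean log2 CPM of the tested core genes minus that of the regulatory genes gave -0.16, -0.21 and -0.22 in WT and -0.08, -0.07 and -0.25 in Zpbp2 KO livers, a difference of group means of 0.07 with overlap. Without Psma8, whose few counts weigh on this mean, it gave 0.30, 0.19 and 0.24 in WT and 0.42, 0.42 and 0.28 in Zpbp2 KO livers, a difference of 0.13, and replicate 3 of the knockout then lay above WT replicates 2 and 3 but below WT replicate 1. The difference between the particles was not tested.

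Zpbp2 KO replicates 1 and 2 were both above every WT liver for 14 of 15 core genes, the exception being Psma8, and for 5 of 20 regulatory genes, while 18.1% of all tested genes showed that order. This grouping of 2 of the 3 knockout livers was described after their values were seen. Zpbp2 KO replicate 3 was above every WT liver for 0 of 35 genes, below the WT mean for 34 of 35, all but Psmd9, and the lowest of the 6 livers for 17. No gene had all 3 Zpbp2 KO livers above WT (0 of 35, against 5.56% of all tested genes), and 2 of 35, Psma8 and Psmd2, had all 3 below WT, against 6.01% of all tested genes. Without Zpbp2 KO replicate 3 the core median was 0.23 and the regulatory median 0.06, and 9 proteasome genes were higher at an unadjusted p below 0.05, namely Psma3, Psma7, Psmb1 to Psmb6 and Psmc3, beside 7.0% of all genes in that fit. None of the 9 was called, and their edgeR adjusted p values started at 0.278.

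Several measures that are not about the proteasome ran with this order of the livers. Over all tested genes, those with the shortest transcripts (longest annotated form at most 2000 bases) lay 0.19 and 0.20 above the WT mean (median log2 difference) in Zpbp2 KO replicates 1 and 2 and at -0.02 in replicate 3, within -0.05 to 0.03 for the WT livers. Those of at least 4655 bases lay at -0.17, -0.16 and 0.02 in the same livers. The longest annotated transcript had a median of 1239 bases for core genes, 1986 for regulatory genes and 3207 for all tested genes. With each library's trend with length and GC content removed, the core median was 0.06 (11 of 15 genes above 0), the beta ring median 0.06, the regulatory median -0.04 (7 of 20 above 0) and the median of all genes 0.00. Leaving out Zpbp2 KO replicate 3 as well, a choice made after seeing the data, gave 0.09 for the core and 0.00 for the regulatory particle, with 1 of 35 genes at an unadjusted p below 0.05. Erythroid markers (6 of 6 measured, 5 of 5 tested above 0) summed to 307 and 359 CPM in Zpbp2 KO replicates 1 and 2 and to 170 CPM in replicate 3, with 154 to 227 CPM in WT, and their part in the core values was not tested.

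**Figure D2:**
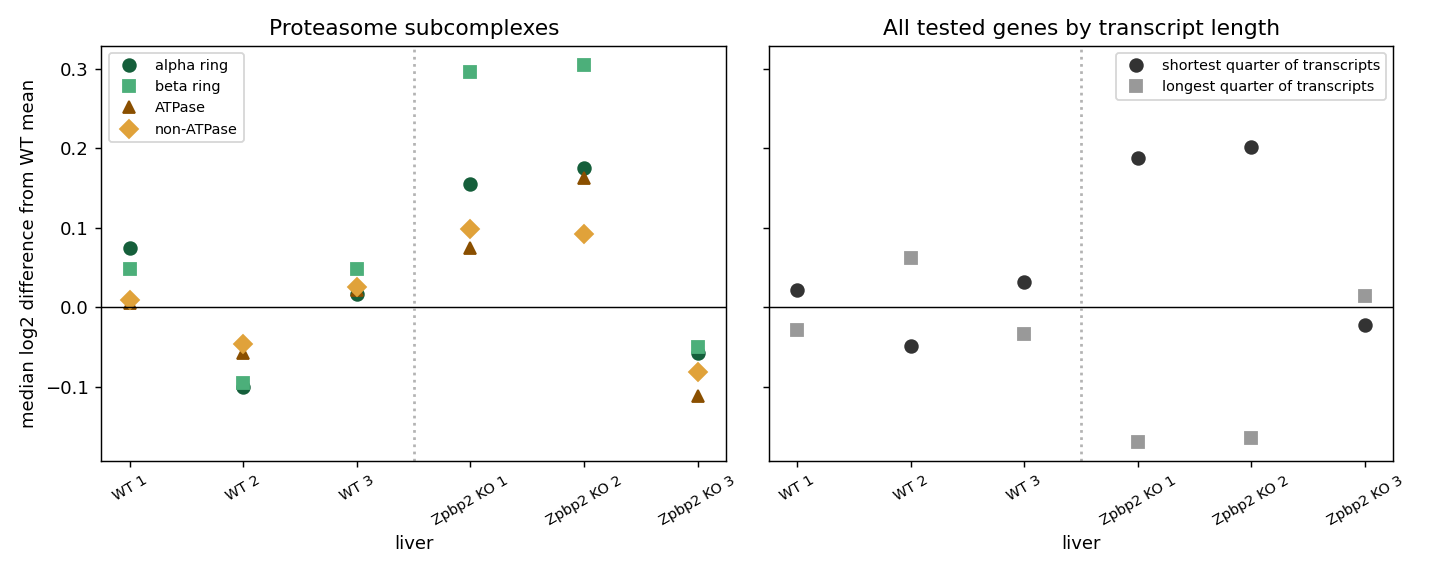
Median log2 difference from the WT mean in each liver, for the genes of the 4 proteasome subcomplexes on the left and for the shortest (at most 2000 bases) and longest (at least 4655 bases) transcripts among all tested genes on the right. The beta ring stands at 0.30 in Zpbp2 KO replicates 1 and 2 and at -0.05 in replicate 3, and short transcripts stand high in the same 2 livers.

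The 3 catalytic subunits of the beta ring had similar estimates and overlapping groups. Psmb5 (ENSMUSG00000022193, chromosome 14) encodes the subunit with chymotrypsin-like activity, which bortezomib targets, Psmb6 (ENSMUSG00000018286, chromosome 11) the caspase-like and Psmb7 (ENSMUSG00000026750, chromosome 2) the trypsin-like subunit. Psmb5 stood at 79.4, 74.5 and 84.7 CPM in WT replicates 1 to 3 and at 101.2, 98.1 and 74.5 CPM in Zpbp2 KO replicates 1 to 3, a log2 fold change of 0.20 ± 0.132 (SE). Psmb6 stood at 100.7, 90.9 and 103.8 CPM in WT and at 122.7, 128.2 and 95.4 CPM in Zpbp2 KO livers, 0.23 ± 0.128 (edgeR adjusted p 0.798). Psmb7 stood at 143.8, 130.8 and 143.0 CPM in WT and at 158.9, 157.8 and 134.3 CPM in Zpbp2 KO livers, 0.11 ± 0.102. In each of the 3 genes replicates 1 and 2 of the knockout were above all WT livers and replicate 3 was not. After the trend with length and GC was taken out, estimates were 0.03, 0.06 and 0.11 for Psmb5, Psmb6 and Psmb7. Processed pseudogenes could draw reads from these genes. The entries for Psmb5-ps and Psmb6-ps held 0 counts and Psmb7-ps2 at most 2 in a library. How the counting treated shared reads is not known, so these counts cannot show whether the parent genes lost reads.

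The start regions of Psmb5 and Psmb6 are shown because both hold the core letters of the element that Nfe2l1 is known to bind. The letters searched were TGACNNNGC on both strands, in RefSeq windows of 300 bases (250 before and 50 after the gene's start, build GRCm38.p6), and 29 of the 36 genes had a window. The 250 bases before the start are printed 5′ to 3′ on the gene's strand, with the match in capitals. Psmb5 lies on the minus strand at chr14:54617996-54618245, and Psmb6 on the plus strand at chr11:70525107-70525356.
Psmb5: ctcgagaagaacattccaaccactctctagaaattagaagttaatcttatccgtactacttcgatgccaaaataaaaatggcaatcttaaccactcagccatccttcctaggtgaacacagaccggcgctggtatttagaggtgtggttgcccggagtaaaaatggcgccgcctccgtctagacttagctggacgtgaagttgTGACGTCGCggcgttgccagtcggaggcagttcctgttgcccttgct
Psmb6: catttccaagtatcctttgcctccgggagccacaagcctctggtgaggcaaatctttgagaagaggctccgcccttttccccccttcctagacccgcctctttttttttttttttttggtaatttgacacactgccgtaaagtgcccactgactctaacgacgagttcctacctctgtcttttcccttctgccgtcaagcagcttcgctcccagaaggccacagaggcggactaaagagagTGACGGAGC
The match spans bases 204 to 212 of the Psmb5 window and bases 242 to 250 of the Psmb6 window. Among the 31 windows of proteasome genes 16.1% held these letters, in the genes Psmb5, Psmb6, Psmc6, Psmd9 and Psmd12, against 12.4% of all 32851 windows. They stood in 2 of 12 core genes and 3 of 17 regulatory genes with a window. A link between these letters and the levels was not tested.

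The other beta genes of the constitutive ring, Psmb1 to Psmb4, shape it without cutting. Psmb1 (ENSMUSG00000014769) stood at 119.1, 95.7 and 103.4 CPM in WT and at 131.6, 128.5 and 100.5 CPM in Zpbp2 KO livers (0.18 ± 0.134). Psmb2 (ENSMUSG00000028837) stood at 48.7, 45.6 and 49.7 CPM in WT and at 56.5, 62.7 and 47.9 CPM in Zpbp2 KO livers (0.21 ± 0.117), and had the lowest unadjusted p of the ring. Psmb3 (0.19 ± 0.152) and Psmb4 (0.17 ± 0.113) gave estimates of the same size. In all 4 genes the genotypes overlapped through Zpbp2 KO replicate 3. Psmb11, the thymus subunit, gave 1 count in WT replicate 1 and 0 in the other 5 libraries, and a count of 0 allows up to 0.0560 to 0.0786 CPM.

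In the alpha ring, 7 of 8 genes were above 0. Psma7 (ENSMUSG00000027566) stood at 94.5, 80.5 and 88.4 CPM in WT and at 109.5, 111.9 and 87.3 CPM in Zpbp2 KO livers (0.23 ± 0.122, edgeR adjusted p 0.798). Psma6 (ENSMUSG00000021024) stood at 94.5, 84.0 and 91.0 CPM in WT and at 104.6, 97.0 and 86.6 CPM in Zpbp2 KO livers (0.10 ± 0.104). Psma1 (0.07), Psma2 (0.10), Psma3 (0.15), Psma4 (0.14) and Psma5 (0.08) lay between these or lower. After the same correction Psma1, Psma5 and Psma6 were at -0.04, -0.02 and -0.02.

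Psma8 (ENSMUSG00000036743), the meiotic counterpart of Psma7, was the alpha gene with an estimate below 0 and the only proteasome gene among the 35 with a log2 fold change beyond 0.25 in size. It gave 40, 66 and 25 counts in the WT livers, then 28, 28 and 17 in the knockout livers, which is 0.763, 1.23 and 0.655 CPM against 0.585, 0.614 and 0.326 CPM. All 3 knockout livers were below all WT livers, and the log2 fold change was -0.81 ± 0.361 (edgeR adjusted p 0.798). Without WT replicate 2, which held the most counts, the log2 fold change was -0.49. Corrected for length and GC it was -0.87 (edgeR unadjusted p 0.041, adjusted p 0.949). Psma8 was the 1 of 35 proteasome genes at an unadjusted p below 0.05 in that fit, which 741 of all genes reached. Per kilobase of coding sequence its WT level was 1.18 ± 0.41 CPM (SD, n = 3) where Psma7 had 118 ± 9.42, and how the counting treated reads shared by the pair is not known. Spermatogenic markers (4 of 4 measured) summed to 0.112 to 0.236 CPM in WT and 0.197 to 0.230 CPM in Zpbp2 KO livers, with Prm1 at 0.

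The 6 ATPase genes had log2 fold changes from -0.03 to 0.13, 5 of them above 0. Psmc3 (ENSMUSG00000002102), whose protein's tail docks into the alpha ring and helps to open its gate, stood at 110.7, 108.7 and 112.5 CPM in WT and at 125.5, 130.7 and 108.0 CPM in Zpbp2 KO livers (0.13 ± 0.10). Psmc5 (ENSMUSG00000020708) stood at 65.7, 61.9 and 73.2 CPM in WT and at 67.3, 83.9 and 61.1 CPM in Zpbp2 KO livers (0.08 ± 0.135). Psmc1 (ENSMUSG00000021178) stood at 130.5, 123.3 and 123.4 CPM in WT and at 135.8, 126.1 and 118.6 CPM in Zpbp2 KO livers (0.01 ± 0.0919). Zpbp2 KO replicate 3 was the lowest of the 6 livers for each of the 6 ATPase genes. Psmc2 (ENSMUSG00000028932) stood at 98.0, 95.4 and 98.5 CPM in WT and at 102.1, 108.0 and 89.6 CPM in Zpbp2 KO livers, and Psmc4 (0.05) and Psmc6 (-0.03) also overlapped.

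Among the non-ATPase genes Psmd2 (ENSMUSG00000006998) was the 1 of 14 with separate groups, where 6.01% of all tested genes had all knockout livers below WT. It encodes the scaffold on which ubiquitin-carrying shuttle proteins and the deubiquitinase Usp14 dock. It stood at 213.3, 220.0 and 221.6 CPM in WT and at 200.9, 197.4 and 205.6 CPM in Zpbp2 KO livers, so that every knockout liver lay below every WT liver by a small step. Its log2 fold change was -0.12 ± 0.0830, with a 95% interval from -0.31 to 0.07 (edgeR adjusted p 0.810). With each library corrected for length and GC it was -0.14.

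The subunits that handle ubiquitin overlapped. Psmd4 (ENSMUSG00000005625), a ubiquitin receptor, stood at 97.0, 94.0 and 103.3 CPM in WT and at 104.4, 125.3 and 85.8 CPM in Zpbp2 KO livers, the widest spread among knockout livers in its subcomplex (0.10 ± 0.139). Psmd14 (ENSMUSG00000026914), the deubiquitinase that strips chains from substrates, had means of 44.9 ± 2.15 and 46.6 ± 6.02 CPM (SD, n = 3) in WT and Zpbp2 KO livers. The large scaffold gene Psmd1 had 136.1 ± 4.04 and 136.7 ± 10.7 CPM. The lid genes Psmd3, Psmd6, Psmd7, Psmd8, Psmd11, Psmd12 and Psmd13 had log2 fold changes from -0.04 (Psmd11) to 0.04 (Psmd7). Psmd3 lies on chromosome 11 with 6 protein-coding genes between it and Zpbp2, and stood at 115.2, 111.5 and 118.4 CPM in WT and at 123.7, 115.2 and 109.3 CPM in Zpbp2 KO livers.

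The start region of Psmd4 is shown beside the 2 beta genes because it holds the letters most unevenly spread between the particles, a choice made after the matches were counted. CCGGAAG, the letters bound by ETS factors, stood in windows of 9 of 17 regulatory genes and 1 of 12 core genes with a window (35.5% of the proteasome windows, 8.86% of all windows). CCAAT stood in 38.7% of them, against 37.4% of all. The capitals mark the first of these and, on the other strand, the second, at chr3:95042615-95042864 (GRCm38.p6, minus strand, 250 bases before the start).
Psmd4: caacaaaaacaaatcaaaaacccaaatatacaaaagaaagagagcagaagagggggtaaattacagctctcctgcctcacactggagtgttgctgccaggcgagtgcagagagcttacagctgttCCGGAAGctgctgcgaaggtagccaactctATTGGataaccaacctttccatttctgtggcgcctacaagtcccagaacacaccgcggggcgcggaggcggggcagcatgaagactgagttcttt
Of the further letters searched on both strands, AAGATGG (YY1) was in 19.4% of the proteasome windows and 6.34% of all, and the TATA box letters TATAAA in 9.68% and 13.6%. The cAMP element TGACGTCA was in 0% and 1.79%, and GCGCATGC, for nuclear respiratory factor, in 6.45% and 2.71%. The element CTCGCGAGA was in 3.23% and 0.676%. These shares describe letters in windows, not binding.

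The 3 assembly chaperones in the name family had the lowest WT levels per coding length of the 20 regulatory genes (15.4 for Psmd10, 22.7 for Psmd5 and 47.2 for Psmd9, in CPM per kilobase). For Psmd9 (SD 4.56, n = 3) the step to Psmd1 (47.6) and Psmd14 (48.3) was less than its spread. Psmd10 (ENSMUSG00000031429), known as gankyrin, stood at 11.8, 9.81 and 10.5 CPM in WT and at 12.4, 11.5 and 10.6 CPM in Zpbp2 KO livers (0.11 ± 0.130). Psmd9 (ENSMUSG00000029440) stood at 34.9, 30.2 and 29.3 CPM in WT and at 35.0, 29.4 and 33.5 CPM in Zpbp2 KO livers (0.05 ± 0.115), and Psmd5 had 34.3 ± 1.30 and 33.8 ± 0.300 CPM (SD, n = 3).

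**Figure D3:**
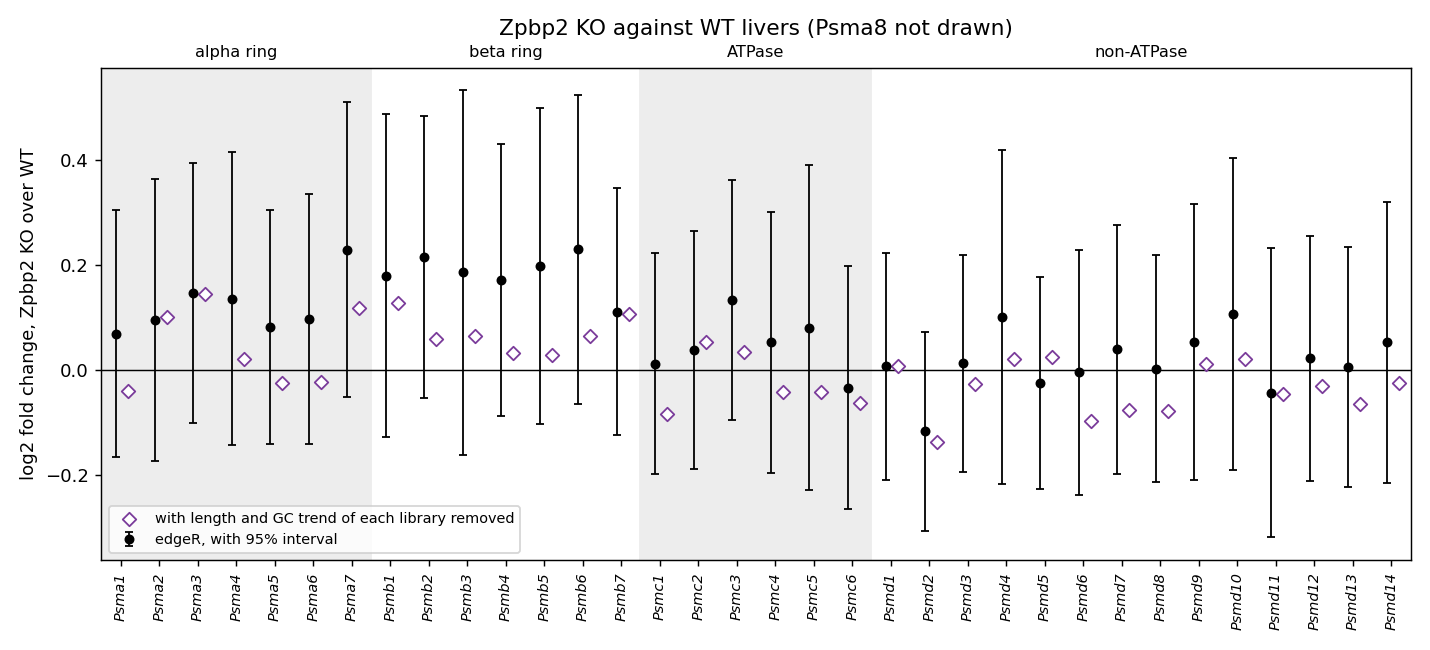
Log2 fold changes, Zpbp2 KO over WT, of 34 proteasome genes with 95% intervals (filled points), and the same estimates with each library's length and GC trend removed (open diamonds). Every interval spans 0, and the beta ring estimates lie between 0.11 and 0.23. Diamonds lie nearer to 0 than the points for every core gene drawn but Psma2. For most regulatory genes they lie further from 0, as for Psmc1 (0.01 to -0.08).

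Transcript levels within the complex were compared per length. Per kilobase of coding sequence, WT medians were 118 CPM for the alpha ring (7 genes, without Psma8), 138 for the beta ring (7 genes), 70.1 for the ATPases and 58.8 for the non-ATPase genes. The highest levels were those of Psmb7 (168 ± 8.79) and Psmb4 (165 ± 10.9, SD, n = 3), which differed by less than their spread, followed by Psmb1 (147 ± 16.6) and Psma3 (143 ± 9.64). The lowest core levels were those of Psma5 (84.5 ± 5.25) and Psmb2 (79.6 ± 3.61). On the regulatory side Psmd11 (103 ± 2.59), Psmd8 (100 ± 4.24) and Psmc1 (95.3 ± 3.12) were highest and Psmd10 (15.4 ± 1.45) and Psmd5 (22.7 ± 0.862) lowest. Without the 3 chaperones the 11 other non-ATPase genes lay between 47.6 (Psmd1) and 103, a 2.16-fold range. The core range without Psma8 was 2.10-fold and that of the ATPases 1.73-fold.

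The length chosen changes this picture. Per kilobase of all annotated exons, the medians were 29.0 CPM for the alpha ring, 40.7 for the beta ring, 42.1 for the ATPases and 21.8 for the non-ATPase genes, and Psmb5 (88.5) and Psma6 (72.8 ± 4.33) led while Psmd9 (4.34) was lowest. On that scale the lowest of the beta ring was Psmb1 (23.1 ± 2.60), and in the ATPase ring Psmc1 (65.1 ± 2.13) and Psmc2 (19.3 ± 0.329) marked the ends. The ratio of the median core level (15 genes, Psma8 included) to the median regulatory level (20 genes) was taken within each WT liver and averaged over the 3 livers. It was 1.70 per exon length, 1.87 per coding length and 1.22 per median transcript length. No source names the gene region the reads were counted over.

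**Figure D4:**
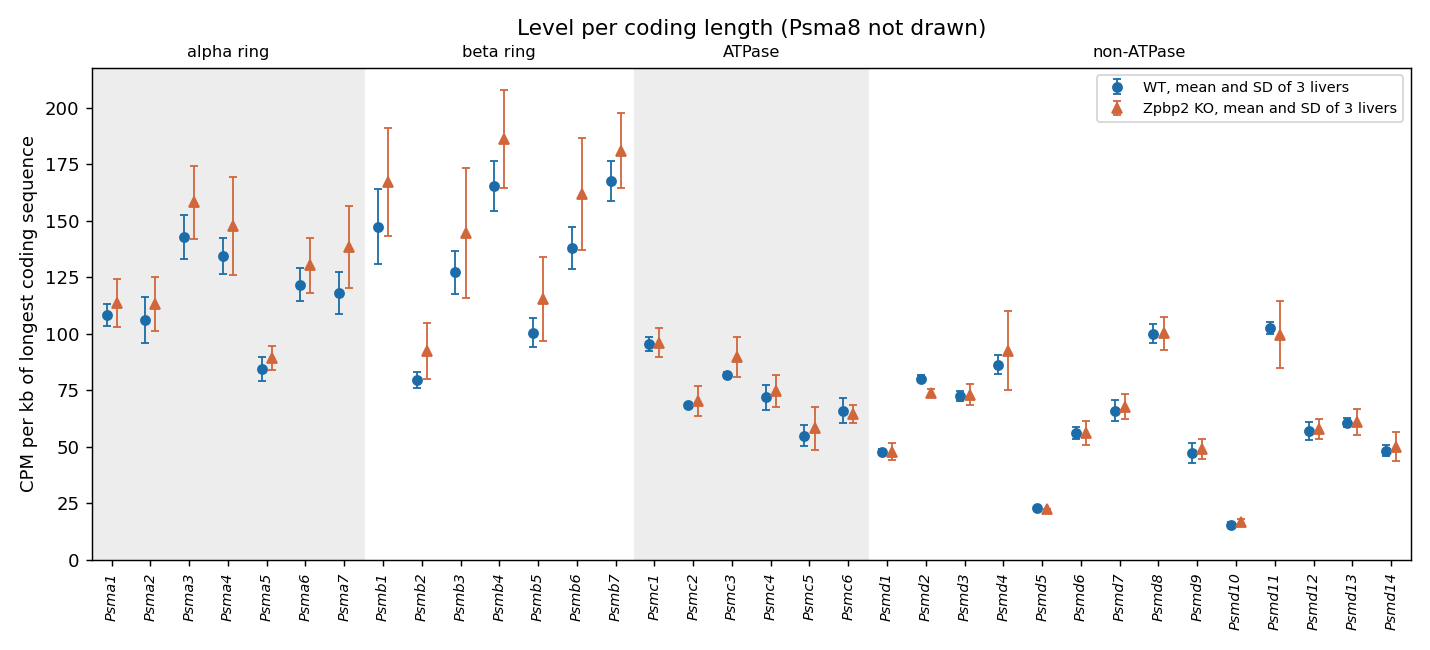
Level of 34 proteasome genes as CPM per kilobase of longest coding sequence, mean and SD of 3 livers, circles for WT and triangles for Zpbp2 KO. Core genes lie between 79.6 and 168 in WT and regulatory genes between 15.4 and 103, and the SDs of the genotypes overlap for every gene shown but Psmd2.

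Levels of the subunits varied little from liver to liver. The median coefficient of variation over 34 genes without Psma8 was 5.97% in WT and 9.43% in Zpbp2 KO livers, while over all tested genes, many of them with fewer counts, it was 11.2% and 14.9%. Psmd5 in the knockout (0.888%) and Psmc2 in WT (1.70%) varied least, and Psmb3 in the knockout (19.8%) most. The 36 genes lie on 16 chromosomes, 6 of them on chromosome 11.

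Subunits that replace or extend the constitutive ones were measured beside them, from lists written with earlier results of these data known. Psmb8 and Psmb10, the interferon-induced forms of Psmb5 and Psmb7, and the PA28 activator genes Psme1 and Psme2 were each higher in all 3 Zpbp2 KO livers than in any WT liver (4 of 4, with 5.56% of all tested genes in that order), though 0 of the 4 were called by edgeR or DESeq2. Psmb10 stood at 32.6, 23.3 and 28.6 CPM in WT and at 38.3, 39.5 and 42.0 CPM in Zpbp2 KO livers (0.50 ± 0.132, edgeR adjusted p 0.659). Psmb8 stood at 29.5, 22.9 and 29.2 CPM in WT and at 30.8, 41.8 and 43.9 CPM in Zpbp2 KO livers (0.51 ± 0.161). In both genes Zpbp2 KO replicate 3 was the highest of the 6 livers, where it was below the WT mean for Psmb5 and Psmb7. Psme2 gave 0.28 ± 0.108 and Psme1 0.24 ± 0.112. Corrected for length and GC, Psme2 was at 0.13 and Psme1 at 0.15, while Psmb10 was at 0.39 and Psmb8 at 0.43, and the median of the 4 went from 0.39 to 0.27. Without WT replicate 2, Psme1 was at 0.16. Immune cells are known for high levels of these genes. T and NK cell markers (8 of 8 measured, 6 of 7 tested above 0) summed to 1.76 to 3.91 CPM in WT and to 4.18, 2.78 and 4.56 CPM in Zpbp2 KO replicates 1 to 3, and B and plasma cell markers (7 of 7 measured, 6 of 7 tested above 0) to 5.08 to 9.65 CPM and then 11.5, 6.78 and 10.2 CPM. Kupffer cell markers (8 of 8 measured, 7 of 8 above 0) summed to 203 to 275 CPM in WT and to 320, 110 and 344 CPM in the knockout. All 3 sums were lowest among knockout livers in replicate 2, and their part in the values of these genes was not tested. Psmb9 was not analysed here, and the difference between induced and constitutive forms was not tested.

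The lists of the ubiquitin-proteasome pathway held 72 genes, the immunoproteasome genes and the members Psmd5, Psmd9 and Psmd10 included. Of these 68 were tested and 0 called by edgeR. At an unadjusted p below 0.05, 6 of the 68 were higher and 5 lower, against 2.86% and 2.93% of all tested genes. Together these 11 became 6 with each library corrected for length and GC, and 18 without Zpbp2 KO replicate 3. The share of all genes at that p rose too: without Zpbp2 KO replicate 3, 7.0% were higher and 6.39% lower. With the correction 741 of all genes reached it, against 420 higher and 430 lower before. The count was 5 without Zpbp2 KO replicate 2, WT replicate 2 or WT replicate 3, and 4 without Zpbp2 KO replicate 1. Shares of all genes in those last fits are not given here. Ubb, a polyubiquitin gene, gave 0.25 ± 0.0981 with all 3 knockout livers above WT, and the ubiquitin-activating enzyme gene Uba6 gave -0.37 ± 0.162 at 7.76 ± 1.19 and 6.00 ± 0.418 CPM (SD, n = 3). Corrected for length and GC, Ubb was at 0.13 and Uba6 at -0.24, and neither kept an unadjusted p below 0.05. Without WT replicate 2, Uba6 was at -0.24. Of 10 tested assembly factors, Psmd5, Psmd9 and Psmd10 among them, 1 was higher at an unadjusted p below 0.05 (2.86% of all tested genes). This was Pomp, which matures the core, at 88.6, 84.0 and 89.9 CPM in WT and 103.1, 114.5 and 93.8 CPM in Zpbp2 KO livers. Corrected for length and GC, Pomp was at 0.26, with an edgeR unadjusted p of 0.040.

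Genes around Nfe2l1, which drives subunit transcription, had mostly negative estimates, as had the shuttle factors and the proteasome-bound factors. In the Nfe2l1 list of 14 tested genes, 3 were above 0 and the median log2 fold change was -0.11. In 5 all knockout livers were below WT (6.01% of all tested genes), while 0 were called. The list was mixed: it held Nfe2l1, genes of its activation, genes of its breakdown such as Fbxw7, and its relative Nfe2l2. Fbxw7, named after its values were seen, and Nfe2l2 were among the 5. The list median thus gives no direction for Nfe2l1 activity, which was not tested. Of 7 shuttle factors, Ddi2 among them, 1 was above 0 (median -0.11, 3 with all knockout livers below WT). Of 8 proteasome-bound factors 3 were above 0 (median -0.09, 1 with all knockout livers below WT). Over all lists 35 of 68 tested genes were above 0, and over all tested genes 7764 of 14686. Ddi2, the protease that cleaves Nfe2l1 into its active form, stood at 216.7, 247.9 and 246.1 CPM in WT and at 195.0, 211.6 and 181.9 CPM in Zpbp2 KO livers (-0.27 ± 0.102). Corrected for length and GC it was at -0.14, with an unadjusted p of 0.310. Nfe2l2 stood at 109.7, 67.9 and 84.6 CPM in WT and at 64.8, 67.7 and 64.7 CPM in Zpbp2 KO livers (-0.41 ± 0.163), and without WT replicate 1 it was at -0.21. Corrected for length and GC, Nfe2l2 was at -0.43, with an edgeR unadjusted p of 0.024. Nfe2l1 itself, chosen after its values were seen, had 123.2 ± 5.51 and 108.7 ± 7.54 CPM (SD, n = 3), a log2 fold change of -0.18 ± 0.0943. Nfe2l3 was below the filter.

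In the remaining lists few genes reached an unadjusted p below 0.05. Zfand5, a ubiquitin-binding protein that stimulates the proteasome, was lowest in p among the proteasome-bound factors (1 of 8 lower, against 2.93% of all tested genes), at 62.9, 62.2 and 63.5 CPM in WT and at 50.04, 51.6 and 50.7 CPM in Zpbp2 KO livers (-0.31 ± 0.0840, edgeR adjusted p 0.677). Corrected for length and GC it was at -0.17, with an unadjusted p above 0.05. Psme4, which encodes the activator PA200, gave -0.32 ± 0.120 with overlap (1 of 3 activator and inhibitor genes), and -0.19 corrected for length and GC, which ended its unadjusted p below 0.05. Ddi2 was the 1 of 7 shuttle factors lower at that p. For both of these lists the share of all tested genes was again 2.93%. Corrected for length and GC, Ddi2 no longer had an unadjusted p below 0.05. Of 10 tested genes of VCP, which extracts proteins for the proteasome, and its cofactors 0 reached it, the lowest p being that of Nploc4 (-0.15 ± 0.122). For the COP9 signalosome, a complex built like the lid, it was 0 of 9, the lowest p being that of Cops2 (-0.14 ± 0.106).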

How the data were processed

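RNA-seq of 6 mouse livers, 3 WT and 3 Zpbp2 KO, was used, as libraries from 250 ng of total RNA read in pairs of 100 cycles. The authors deposited raw counts per Ensembl gene ID, 1 column per library; STAR, Picard, HTSeq and build mm9 are named per the submitters' processing notes. For their versions, the annotation and the strand setting: not given in the sources used here. All 6 columns were matched by title. Symbols came from GENCODE M21 (32938 of 37991 IDs, 86.7%).

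Counts were filtered with filterByExpr (minimum count 10), scaled by TMM and tested with edgeR 4.0.16 (R 4.3.3), quasi-likelihood F-test, two-sided, Benjamini-Hochberg over 14686 genes, called at an adjusted p below 0.05. CPM uses TMM-scaled library sizes, log2 CPM a prior count of 2. SEs are those implied by the test. Values of a list or particle are medians with no test. The members and lists were chosen with earlier results of these data known. Every member could be named. Values per liver were given for the 3 catalytic subunits and, per subcomplex, the 2 lowest p and the ends of the level per exon length. Psmd3 and Psmd4 were given per liver outside this rule. From other lists up to 3 genes with an unadjusted p below 0.05, or the lowest p, were named, with Psmb8, Psmb10, Psme1 and Psme2 always.

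Alternatives were DESeq2 1.42.0, limma-voom (limma 3.58.1), other scalings and filters, a robust fit, a replicate block, length and GC offsets (splines of 5 degrees of freedom, covering 97.0% of tested genes), and each library left out. The tests were tested on simulated data. Replicates of a group differed by a chi-square of 19.9 to 102 per gene, so none was taken for a copy. Each library is 1 liver, so p-values measure spread between animals. Limits from a count of 0 (3 counts) cover counting error only. Promoter windows came from RefSeq tables of GRCm38.p6, matched by symbol, and were not joined to mm9 coordinates. The values of 1 listed pathway gene are not reported here.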

Additional observations from a re-analysis of the deposited data

How the results depend on the processing

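Over 16 alternatives 0 proteasome genes were called, by edgeR, DESeq2 or limma-voom. The core median ran from 0.06 (length and GC offsets) to 0.23 (without Zpbp2 KO replicate 3), the regulatory median from -0.04 to 0.06, and the difference between them from 0.09 to 0.16; these moved by less than the spread between livers. Of 560 values of single proteasome genes under the alternatives, 69 changed sign and 0 were called. At an unadjusted p below 0.05 the count was 0 in the fit reported and 0 or 1 under every alternative but 1. Without Zpbp2 KO replicate 3 it was 9, all higher, where 7.0% of all genes were higher at that p. Of the pathway genes DESeq2 called 1 and edgeR 0. Over all genes edgeR called 2, with no filter 12, without Zpbp2 KO replicate 2 it called 4, and DESeq2 called 76. The ratio of median core to median regulatory level, averaged over the 3 WT livers with Psma8 included, was 1.70 per exon length, 1.87 per coding length and 1.22 per median transcript length; the lengths themselves set the difference. The replicate numbers did not pair the livers: deviations of same-numbered libraries correlated at 0.14, 0.20 and -0.24 over genes. With the replicate block 0 proteasome genes were called, the core median was 0.14 and the regulatory median 0.02; together with the offsets they were 0.06 and -0.04, and libraries did not all correlate best with their own number. Counts limit Psma8 (17 to 66 per library) and Psmb11 (0 or 1).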
